A study of Mus musculus with 8 samples.

Results

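The genes described here carry the cyclic AMP (cAMP) signal of the ovulatory hormone surge inside granulosa cells: the phosphodiesterase genes Pde4b, Pde4d and Pde10a, the protein kinase A (PKA) subunit genes Prkar1a, Prkar2b and Prkaca, the transcription factor genes Creb1 and Crem, and the G protein regulator gene Rgs2. They were chosen by gene symbol, 9 of the 51886 symbols in the table. The study compared peri-ovulatory granulosa cells of PGR-A KO mice, a strain made to lack the A isoform of the progesterone receptor, with cells of wild-type (WT) mice of that strain. Each genotype had 4 libraries, and each library pooled the cells of 2 to 3 mice aged 21 to 27 days. All animals, WT included, had been given 5 IU of eCG, which grows follicles, and 46 h later 5 IU of hCG, which triggers ovulation, and the cells were taken 8 h after hCG. The allele that removes PGR-A and the cells in which it is active were not given in the sources used here.

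Luteinising hormone and hCG act on a receptor coupled to Gs, which turns on adenylyl cyclase and raises cAMP. PKA is a holoenzyme of a pair of regulatory and a pair of catalytic subunits, and cAMP bound to the regulatory subunits frees the catalytic ones. These phosphorylate CREB1, which binds the cAMP response element (CRE) of target genes, while phosphodiesterases degrade cAMP and so end the signal. PGR is itself induced by this pathway in granulosa cells of follicles about to ovulate.

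Values are TPM, a length-scaled share of the transcripts in a library. The targeted gene, Pgr, held 3.21, 3.52, 2.01 and 3.08 TPM in PGR-A KO replicates 1 to 4 and 1.56, 0.878, 1.41 and 0.756 TPM in WT replicates 1 to 4. Such a gene-level value adds up both receptor isoforms and does not check the loss of PGR-A. All 10 granulosa markers on the list used were above 0 in all 8 libraries, with a summed level of 4406 to 7103 TPM. Oocyte markers were also present, 15 of 15 in every library, at a summed 1025 to 1829 TPM in PGR-A KO and 756 to 1394 TPM in WT. So were 5 of 5 erythroid markers, at a summed 3660 to 6318 TPM in PGR-A KO and 1732 to 11370 TPM in WT. In WT replicate 3 the erythroid sum (11370 TPM) was above the granulosa sum (6253 TPM). The same held in PGR-A KO replicate 3 (6318 against 4406 TPM). Theca and interstitial, macrophage, endothelial and surface epithelium markers were likewise above 0 in all 8 libraries. In many genes of the ovulatory response, WT replicate 1 and PGR-A KO replicate 3 lie among libraries of the other genotype. Whether the labels of these libraries are right was not tested. In Pgr each stayed with its own genotype, PGR-A KO replicate 3 (2.01 TPM) above WT replicate 1 (1.56 TPM). They were still the lowest PGR-A KO and the highest WT library in Pgr, and this gene does not settle the labels. The changes of the 9 genes, the counts of genes and the changes of named pathway genes past the threshold are therefore also given without that pair, while shares, ratios and marker sums are given with all 8 libraries only. P-values cover the spread between libraries, each of which is its own pool of animals.

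CREB1 and CREM act through the CRE, so promoters of 8 of the 9 genes were searched for it. Each window ran from 250 bases before to 50 after a start in RefSeq (GRCm38.p6). The 8 genes had 19 windows. Crem was left out of the search, so whether its promoters hold a match is not known here. The full palindrome TGACGTCA was in 2 of the 19 windows, both of Prkar1a, against 1.79% of all 32851 windows. Its core TGACG, searched on both strands and contained in the palindrome, was in 6 of the 19 windows, those of Pde4b, Prkar1a, Prkaca and Rgs2, against 20.8% of all windows. The pair of Prkar1a windows overlap and share their matches, the palindrome included. The arm TGTTCT of the progesterone response element, on either strand, was in 3 of the 19 windows, those of Pde4b and Prkar1a, against 19.0% of all. The 4 stretches shown run 5′ to 3′ on the gene's own strand, with the matched letters in capitals. The first is the palindrome of Prkar1a, 49 bases before a start within the gene and 38 bases after another such start. The others are a core match of Prkaca 120 bases before its start and the core matches of Rgs2 67 and 185 bases before its start. The Prkar1a stretch overlaps an exon of another Prkar1a transcript by 7 bases in GENCODE M21, and the other 3 lie before the annotated gene. A match is a description of the letters, not a measured binding site.
Prkar1a, chr11:109650880-109650927, plus strand: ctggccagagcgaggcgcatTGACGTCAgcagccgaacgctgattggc
Prkaca, chr8:83972838-83972882, plus strand: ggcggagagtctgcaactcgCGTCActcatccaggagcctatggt
Rgs2, chr1:144004192-144004236, minus strand: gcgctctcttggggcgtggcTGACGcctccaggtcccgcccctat
Rgs2, chr1:144004310-144004354, minus strand: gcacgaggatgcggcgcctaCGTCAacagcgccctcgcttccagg

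By level, Rgs2, Prkar2b and Prkar1a were among the abundant transcripts of these cells and the 3 phosphodiesterase genes were low. Mean TPM over the 8 libraries fell in the order Rgs2 (694 ± 116, SD, n = 8), Prkar2b (483 ± 192), Prkar1a (204 ± 20.3), Prkaca (81.7 ± 9.70), Crem (28.4 ± 6.26), Creb1 (20.1 ± 1.43), Pde4d (10.6 ± 3.39), Pde4b (6.59 ± 1.67) and Pde10a (4.14 ± 0.925). Rgs2 ranked at 168 among all symbols by mean TPM and Prkar2b at 231. The order of Rgs2 and Prkar2b was not fixed, since Rgs2 was the higher of them in 7 of 8 libraries and Prkar2b in WT replicate 2. Every other neighbour in this order kept its place in 8 of 8 libraries, although the ranges over libraries overlapped between Crem and Creb1, Pde4d and Pde4b, and Pde4b and Pde10a. All 9 genes passed the filter of at least 1 TPM in at least 4 libraries.

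**Figure D1:**
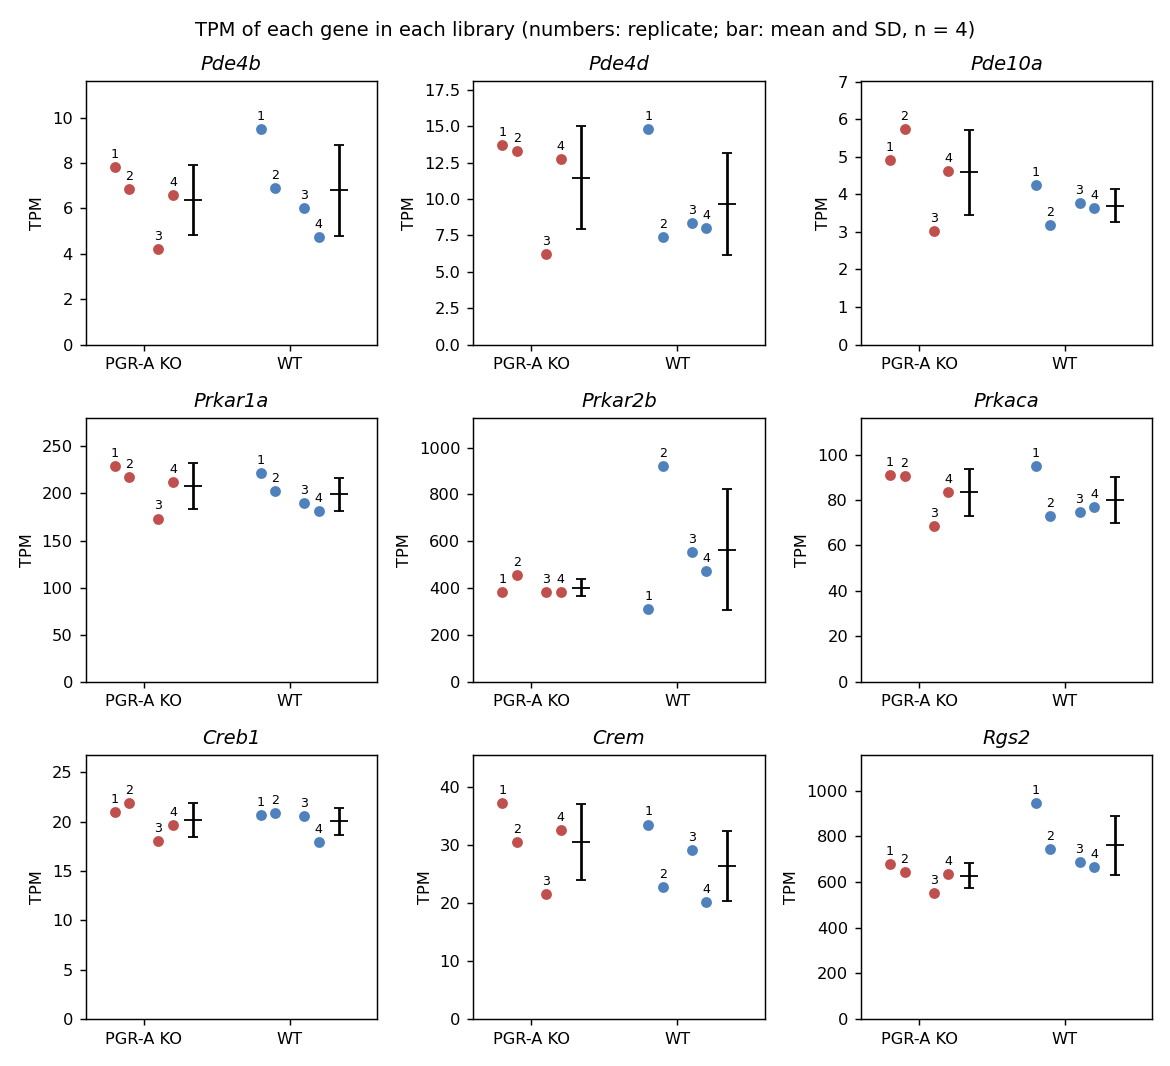
TPM (vertical axes, from 0) of each of the 9 genes in the 4 PGR-A KO (red) and 4 WT (blue) libraries; numbers are replicates and the bar beside each group is the mean with the SD (n = 4). The genotypes overlap in all 9 genes; Pde4d stands at 6.21 TPM in PGR-A KO replicate 3 and 14.8 TPM in WT replicate 1, and Prkar2b at 922 TPM in WT replicate 2.

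No gene of the 9 differed between PGR-A KO and WT past the threshold. Expression was tested as log2(TPM + 1) with limma over 14472 genes, and 0 of the 9 had a Benjamini-Hochberg adjusted p under 0.05, where 0.0138% of all tested genes did. At an unadjusted limma p under 0.05 there were also 0 of the 9, against 6.31% of all tested genes. The groups overlapped in all 9, while they did not overlap in 3.42% of tested genes. Means were higher in PGR-A KO for 6 genes and lower for 3, with a median log2 change of 0.059 over the 9 and of -0.023 over all tested genes. Limma's adjusted p ran from 0.783 (Rgs2) to 0.991 (Creb1). With 4 against 4 libraries the exact permutation test cannot give a p below 0.0286, and none of the 9 reached it. These p-values do not show that the genotypes are alike, so the 95% interval of each change is given.

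Pde4d encodes a cAMP-specific phosphodiesterase whose loss is known to lower ovulation in mice, and it had the widest relative spread of the 3 phosphodiesterase genes. Pde4d (ENSMUSG00000021699.17, chromosome 13, 108449948 to 109953461, plus strand, mm10) held 13.7, 13.3, 6.21 and 12.7 TPM in PGR-A KO replicates 1 to 4 and 14.8, 7.36, 8.36 and 8.03 TPM in WT replicates 1 to 4. In each genotype 3 libraries lay close together and the other stood on the far side, PGR-A KO replicate 3 below and WT replicate 1 above. The means were 11.5 ± 3.52 TPM in PGR-A KO and 9.64 ± 3.48 TPM in WT (SD, n = 4). Between genotypes the log2 change was 0.22 (SE 0.27, 95% interval -0.39 to 0.83, limma adjusted p = 0.922).

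Pde4b, its close relative, showed the same extremes with less contrast between the rest. Pde4b (ENSMUSG00000028525.16, chromosome 4, 102087543 to 102607259, plus strand) held 7.84, 6.87, 4.22 and 6.60 TPM in PGR-A KO and 9.51, 6.88, 6.03 and 4.75 TPM in WT, replicates 1 to 4. The lowest library was PGR-A KO replicate 3 and the highest WT replicate 1, and the groups overlapped. Its log2 change was -0.070 (SE 0.21, 95% interval -0.55 to 0.41, limma adjusted p = 0.963). Within a library, the ratio of Pde4b to Pde4d was 0.572 ± 0.0758 in PGR-A KO and 0.722 ± 0.152 in WT (SD, n = 4). These ratios overlapped, from 0.518 to 0.679 and from 0.591 to 0.936. Pde4d was the higher of the pair in all 8 libraries.

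Pde10a encodes a phosphodiesterase that degrades both cAMP and cGMP, and it was the lowest of the 9 genes. Pde10a (ENSMUSG00000023868.17, chromosome 17, 8525372 to 8986648, plus strand) held 4.91, 5.75, 3.03 and 4.63 TPM in PGR-A KO and 4.24, 3.17, 3.77 and 3.63 TPM in WT, replicates 1 to 4. The 3 highest libraries were PGR-A KO and so was the lowest. Its change was 0.23 on the log2 scale (SE 0.16, 95% interval -0.13 to 0.59, limma adjusted p = 0.847). The log2(TPM + 1) scale understates changes at so low a level.

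The 3 phosphodiesterase genes were a minor part of the phosphodiesterase transcripts of these cells. Summed over 21 genes with a catalytic phosphodiesterase product, the level was 149 ± 13.6 TPM in PGR-A KO and 147 ± 6.52 TPM in WT (SD, n = 4). Pde4b, Pde4d and Pde10a together made up 14.8% ± 2.98 of this sum in PGR-A KO and 13.6% ± 3.46 in WT (SD, n = 4). Their joint share was lowest in PGR-A KO replicate 3 (10.4%) and highest in WT replicate 1 (18.7%). The largest share was that of Pde1a, whose product is stimulated by calcium and calmodulin, at 29.4% ± 3.08 in PGR-A KO and 27.4% ± 3.63 in WT. Next came the cAMP-specific, high-affinity enzyme gene Pde8a at 21.5% ± 1.81 and 19.4% ± 0.776. Pde7a, also cAMP-specific, took 11.9% ± 0.787 and 12.3% ± 0.419. Its relative Pde7b varied most among libraries in percentage points, from 6.60% in PGR-A KO replicate 1 to 20.1% in WT replicate 3. Shares in this sum were described without a test.

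**Figure D2:**
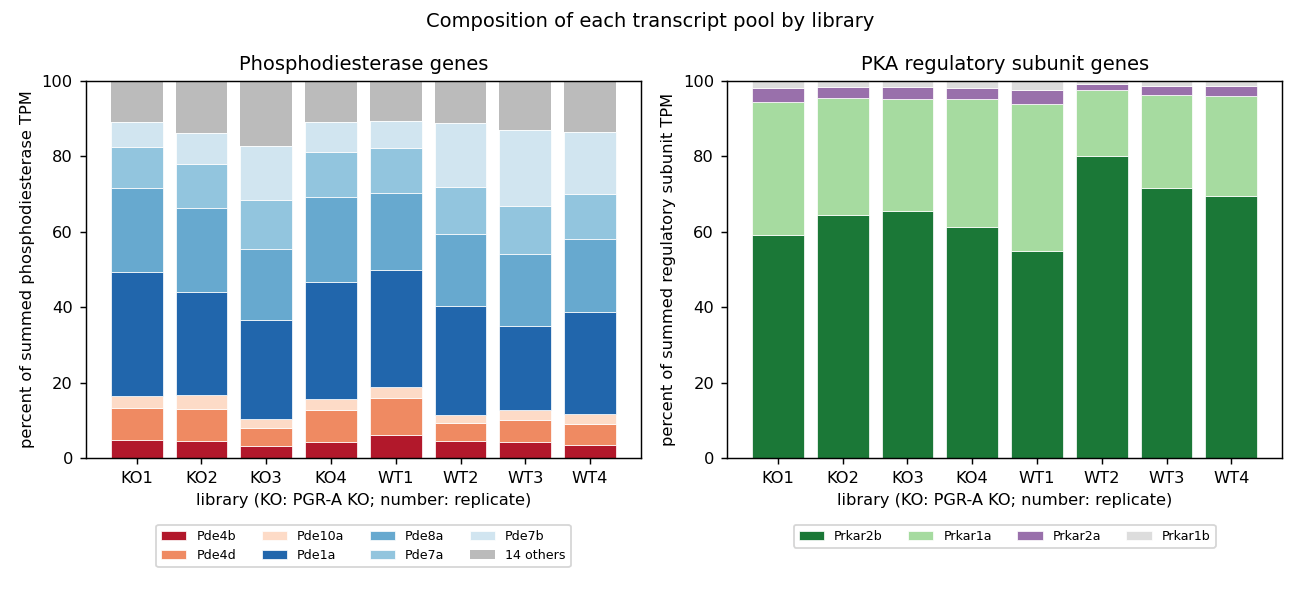
Left, the share (percent, vertical axis) of each phosphodiesterase gene in the summed TPM of 21 such genes, by library; right, the share of each PKA regulatory subunit gene in their summed TPM. Pde1a fills the largest part on the left in each library; on the right Prkar2b ranges from 54.9% in WT replicate 1 to 80.1% in WT replicate 2.

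Among PKA subunits, the regulatory subunit gene Prkar2b was the most abundant and the most variable. Its product RIIβ is known to be induced by follicle-stimulating hormone and cAMP in granulosa cells of growing follicles. Prkar2b (ENSMUSG00000002997.15, chromosome 12, 31958476 to 32061296, minus strand) held 383, 455, 384 and 384 TPM in PGR-A KO and 311, 922, 553 and 471 TPM in WT, replicates 1 to 4. The PGR-A KO libraries lay close together, while WT held both the highest and the lowest of the 8. WT replicates 2, 3 and 4 were above all PGR-A KO libraries and WT replicate 1 was below them. The mean was 401 ± 35.8 TPM in PGR-A KO and 564 ± 259 TPM in WT (SD, n = 4), a WT to PGR-A KO ratio of 1.41. The log2 change was -0.38 (SE 0.27, 95% interval -1.0 to 0.23, limma adjusted p = 0.847).

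Prkar1a encodes RIα, the regulatory subunit found in most cell types, and its level was far steadier. Prkar1a (ENSMUSG00000020612.16, chromosome 11, 109649405 to 109669656, plus strand) held 230, 218, 173 and 212 TPM in PGR-A KO and 222, 203, 190 and 181 TPM in WT, replicates 1 to 4. The highest library was 1.32 times the lowest. WT replicate 1 and PGR-A KO replicates 1, 2 and 4 were the 4 highest. For Prkar1a the log2 change was 0.062 (SE 0.10, 95% interval -0.17 to 0.29, limma adjusted p = 0.945).

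Prkaca encodes the main catalytic subunit. Prkaca (ENSMUSG00000005469.10, chromosome 8, 83972993 to 83996443, plus strand) held 90.8, 90.6, 68.8 and 83.4 TPM in PGR-A KO and 95.1, 72.8, 75.0 and 77.0 TPM in WT, replicates 1 to 4. Its 4 highest libraries were those of Prkar1a and Pde4d. The log2 change was 0.059 (SE 0.12, 95% interval -0.20 to 0.32, limma adjusted p = 0.952).

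The balance between the subunit transcripts followed Prkar2b. Prkar2b was 62.6% ± 2.99 of the summed regulatory subunit TPM in PGR-A KO and 69.0% ± 10.5 in WT (SD, n = 4), and Prkar1a 32.4% ± 2.66 and 27.0% ± 8.97. Prkar2a and Prkar1b held the small remainder, with Prkar2a at 3.29% ± 0.339 and 2.54% ± 0.897. The ratio of Prkar2b to Prkar1a ran from 1.67 to 2.21 in PGR-A KO and from 1.40 to 4.55 in WT. The WT range enclosed that of PGR-A KO. Of the catalytic pool, Prkaca made up 70.8% ± 1.90 in PGR-A KO and 68.3% ± 3.10 in WT, the rest being Prkacb. Prkaca TPM stood to the sum of Prkar1a and Prkar2b at 0.137 ± 0.0104 in PGR-A KO and 0.115 ± 0.0475 in WT (SD, n = 4), lowest in WT replicate 2 (0.0647). Transcript ratios say nothing of the amounts of protein.

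Creb1, the gene of the factor that PKA phosphorylates, was the steadiest of the 9. Creb1 (ENSMUSG00000025958.14, chromosome 1, 64532645 to 64604548, plus strand) held 21.0, 21.9, 18.0 and 19.7 TPM in PGR-A KO and 20.7, 20.8, 20.6 and 18.0 TPM in WT, replicates 1 to 4. Its coefficient of variation over the 8 libraries was 7.12%, against 39.8% for Prkar2b. Between genotypes Creb1 had a log2 change of 0.0077 (SE 0.086, 95% interval -0.19 to 0.20, limma adjusted p = 0.991). CREB1 is controlled mainly by phosphorylation, which RNA does not show.

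Crem encodes both activators and, from an internal promoter that cAMP turns on, the repressor ICER, which ends CRE-driven transcription. Crem (ENSMUSG00000063889.16, chromosome 18, 3266048 to 3337748, minus strand) has 39 transcripts in GENCODE M21, and the gene-level TPM does not separate ICER from the rest. It held 37.3, 30.5, 21.6 and 32.6 TPM in PGR-A KO and 33.5, 22.8, 29.2 and 20.1 TPM in WT, replicates 1 to 4. WT replicate 1 and PGR-A KO replicates 1, 2 and 4 were again the 4 highest. The log2 change was 0.20 (SE 0.19, 95% interval -0.24 to 0.64, limma adjusted p = 0.900). The ratio of Crem to Creb1 was 1.51 ± 0.259 in PGR-A KO and 1.31 ± 0.252 in WT (SD, n = 4), and the groups overlapped.

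Rgs2 came nearest to a difference between the genotypes. Its product speeds up the shut-off of G proteins, chiefly Gq, which the luteinising hormone receptor also engages. Rgs2 (ENSMUSG00000026360.9, chromosome 1, 143999338 to 144004161, minus strand) held 679, 645, 551 and 634 TPM in PGR-A KO and 947, 743, 688 and 665 TPM in WT, replicates 1 to 4. The overlap was a single pair, PGR-A KO replicate 1 above WT replicate 4. Means were 627 ± 54.5 TPM in PGR-A KO and 761 ± 128 TPM in WT (SD, n = 4), a WT to PGR-A KO ratio of 1.21. The log2 change was -0.27 (SE 0.12, 95% interval -0.54 to 0.0064). The exact permutation p was 0.0571 and the unadjusted limma p 0.0545, which was 0.783 after adjustment over all genes. Without WT replicate 1 and PGR-A KO replicate 3 the change was -0.096 (limma adjusted p = 0.454), so its size rests largely on that pair. It was -0.16 without WT replicate 1 alone, -0.31 without WT replicate 3 and -0.33 without WT replicate 4. The unadjusted limma p of the last 2 was 0.0474 and 0.0343, and the adjusted p 0.997 and 0.909. In those 2 fits 4.22% and 5.19% of all tested genes had an unadjusted p under 0.05. Macrophage markers, which also had lower means in PGR-A KO for 7 of 8 genes, summed to 63.0, 57.3, 111 and 53.4 TPM in PGR-A KO and 83.2, 93.5, 90.6 and 112 TPM in WT, replicates 1 to 4. Means were also lower for 5 of 5 surface epithelium markers, 8 of 10 granulosa markers and 8303 of all 14472 tested genes. They were higher for 15 of 15 oocyte, 5 of 5 erythroid and 4 of 4 cumulus and ovulatory granulosa markers. Theca and interstitial markers were split 3 and 3 and tested endothelial markers 2 and 2. The part of any of these cell types in the Rgs2 values was not tested.

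Without WT replicate 1 and PGR-A KO replicate 3, more of the 9 genes separated by genotype, in a fit where many genes did. That fit holds 3 libraries a group, and the pair was dropped for values that resemble the other genotype, so it gives no support for an effect of genotype. Pde4d was then 12.7 to 13.7 TPM in PGR-A KO and 7.36 to 8.36 TPM in WT, with a log2 change of 0.67 (SE 0.088, limma adjusted p = 0.00935). It was the 1 gene of the 9 past the adjusted threshold, which 8.01% of 14114 tested genes passed. At an unadjusted limma p under 0.05 there were 6 of the 9, against 25.1% of all tested genes. These were Pde4d, Crem (0.47), Pde10a (0.43), Prkaca (0.23) and Prkar1a (0.20), higher in PGR-A KO, and Prkar2b (-0.61), lower, with log2 changes in parentheses. Pde4b stood at 0.24 with an unadjusted limma p of 0.117, and Creb1 at 0.074 with 0.427. With 1 of the pair left out, Pde10a had an unadjusted limma p under 0.05 without PGR-A KO replicate 3, where 10.7% of all tested genes did. Prkar2b had one without WT replicate 1, where 12.8% did.

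**Figure D3:**
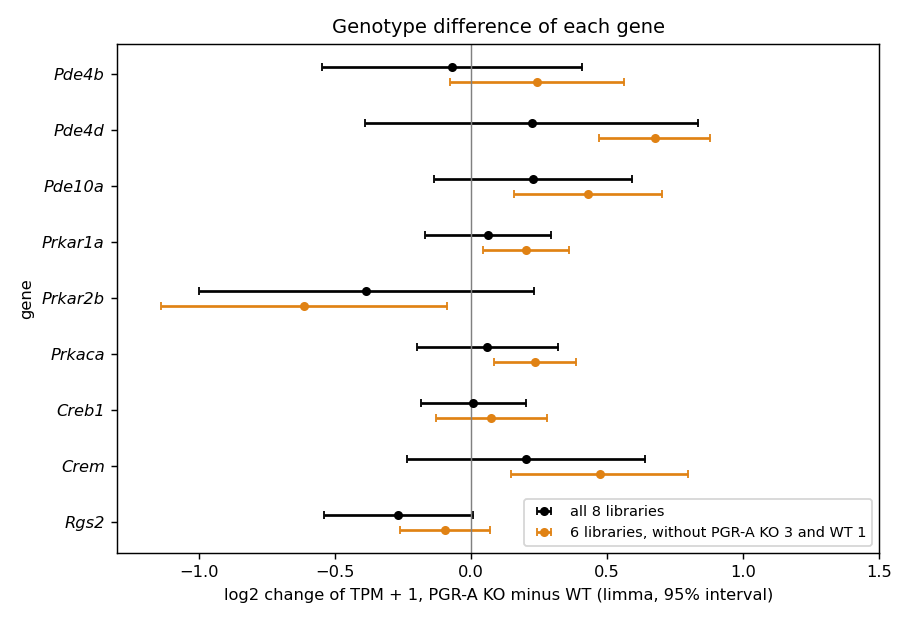
Log2 change of TPM + 1, PGR-A KO minus WT (horizontal axis), for each of the 9 genes, with 95% limma intervals; black, all 8 libraries; orange, 6 libraries without WT replicate 1 and PGR-A KO replicate 3, which were left out for their values. All black intervals include 0; Pde4d moves from 0.22 to 0.67 and Rgs2 from -0.27 to -0.096.

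The same 4 libraries were the highest for 5 of the 9 genes. In 5 of the 9 genes (Pde4d, Pde10a, Prkar1a, Prkaca and Crem) the 4 highest libraries were WT replicate 1 and PGR-A KO replicates 1, 2 and 4, as they were in 17 of 74 tested genes of the rest of the pathway (23.0%) and in 12.6% of all tested genes, counts made after the pattern was seen. PGR-A KO replicate 3 was the lowest library for 6 genes, those 5 without Crem plus Pde4b and Rgs2. Among these 5 genes, Pearson's r of log2(TPM + 1) over the 8 libraries was 0.767 to 0.977, given as a description since the libraries also share this order in many other genes. Prkar2b went the other way, with r from -0.55 to 0.18 with the other 8 genes and below 0 with 7 of them. The summed level of the ovulatory markers Ptgs2, Has2, Tnfaip6 and Areg had the same 4 highest libraries and the same lowest, PGR-A KO replicate 3. It was 173, 144, 59.8 and 125 TPM in PGR-A KO and 170, 101, 82.0 and 62.7 TPM in WT, replicates 1 to 4. Oocyte markers summed to their highest in PGR-A KO replicate 3 (1829 TPM) and their lowest in WT replicate 2 (756 TPM). Whether either set of markers accounts for the order was not tested. In bulk RNA, fewer cells of a type and less RNA per cell cannot be told apart.

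**Figure D4:**
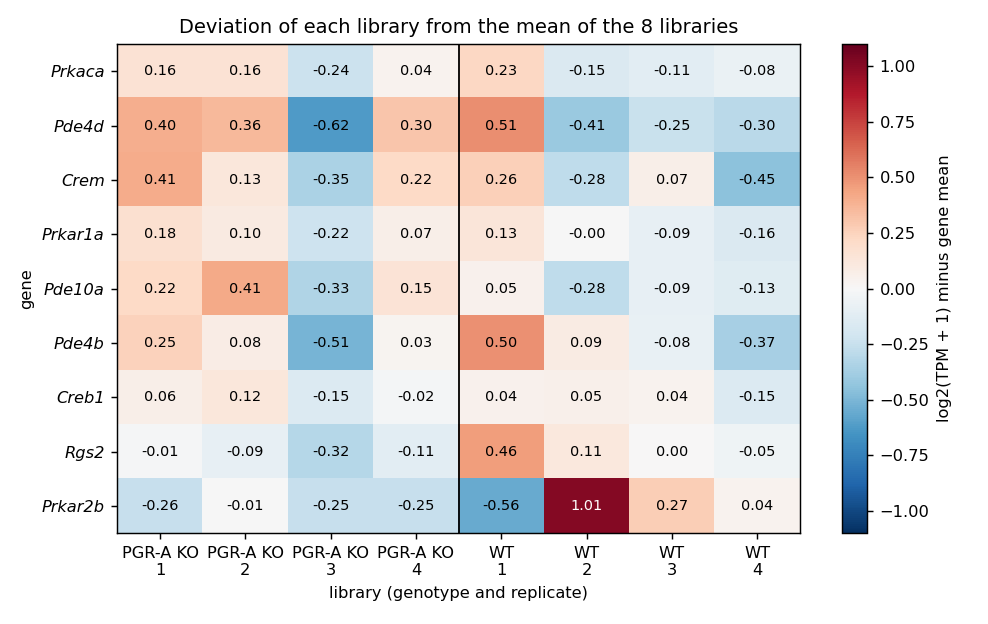
Deviation of each library (columns) from the gene's mean over the 8 libraries, in log2(TPM + 1), for the 9 genes (rows); red is above and blue below the mean. PGR-A KO replicate 3 is below the mean in all 9 rows, to -0.62 in Pde4d, and WT replicate 2 stands at 1.01 in Prkar2b.

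The genes most like each member were ranked by Pearson's r over the 8 libraries among 10247 other genes (10248 for Pde10a) with a mean of at least 5 TPM, and the nearest of so many is high by selection. For Prkar2b they were the Wnt receptor gene Fzd4 (0.988), Inhba (0.986), which encodes the activin and inhibin βA subunit of granulosa cells, and Mettl27 (0.983). For Prkaca they were Prkag1 (0.994), a subunit gene of AMP-activated kinase, Hgs (0.993) and Ppp6r1 (0.992). Crem was nearest to the protocadherin gene Pcdh10 (0.995), Map3k11 (0.970) and Bag5 (0.965). Rgs2 was nearest to Gldc (0.994), a gene of glycine breakdown, Ppp1r13b (0.991) and Bcl2l13 (0.983). Pde4d was nearest to Leng9 (0.995), Atp8b2 (0.994) and Nub1 (0.992), Pde4b to Asb1 (0.991), Osbpl6 (0.989) and Kdm4c (0.988), and Pde10a to the renin gene Ren1 (0.982), Tcf20 (0.982) and Lgmn (0.980). Prkar1a was nearest to Smarca5 (0.993), Ier3 (0.992) and Igsf3 (0.991), and Creb1 to Opa1 (0.984), Gpatch8 (0.982) and Mfap3 (0.980).

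The rest of the cAMP pathway also held no gene past the adjusted threshold. Of 111 genes in 8 lists (cyclases, other phosphodiesterases, other PKA subunits, anchors, CREB relatives, other effectors, other RGS genes and CREB targets), 110 were matched and 74 were tested, with higher means in PGR-A KO for 36 and lower for 38. At an unadjusted limma p under 0.05 there were 6, all lower in PGR-A KO, or 8.11% against the 6.31% of all tested genes, which were themselves split 141 higher and 772 lower. The pathway's split of 0 higher and 6 lower was 2 and 5 with TMM factors and 5 and 5 with quantile normalization. Without PGR-A KO replicate 3 it was 7 and 7. All tested genes were split 319 and 563, 385 and 525, and 535 and 999 in these 3 fits. The pathway's split was 1 and 11 with the replicate block, where all tested genes were split 256 and 1112. It was 0 and 9 without WT replicate 4, where all tested genes were split 107 and 634. Without the pair it turned to 17 higher and 8 lower, or 35.2% of 71 tested, in a fit where 25.1% of all tested genes had such a p, 1561 higher and 1982 lower. In the fit of all 8 libraries the median log2 change of the 74 pathway genes was -0.012.

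Upstream of PKA, the cyclase gene Adcy9 had the lowest p of 7 tested cyclase and Gs genes, of which 3 had higher means and 4 lower. Adcy9 held 12.3 to 15.7 TPM in PGR-A KO and 16.8 to 22.7 TPM in WT, without overlap (log2 change -0.45, limma adjusted p = 0.636). Gnas, the gene of the Gs α subunit, was the most abundant at 851 ± 83.8 TPM in PGR-A KO and 837 ± 96.5 TPM in WT (SD, n = 4). Of 13 other phosphodiesterase genes tested, 9 had higher means and 4 lower, and 0 had an unadjusted p under 0.05. Pde7b had the lowest p, at 13.6 ± 3.48 TPM in PGR-A KO and 22.2 ± 7.94 TPM in WT (SD, n = 4, limma adjusted p = 0.786). The most abundant by symbol, Pde6d, at 64.8 ± 4.55 and 57.8 ± 5.91 TPM (SD, n = 4), encodes a carrier of prenylated proteins and no phosphodiesterase activity of its own.

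Of 5 other PKA subunit and inhibitor genes tested, 3 had higher means and 2 lower. Prkar2a had the lowest p (limma adjusted p = 0.827), and Pkig, an inhibitor of the catalytic subunit, the highest level at 56.8 ± 7.32 TPM in PGR-A KO and 62.1 ± 4.16 TPM in WT (SD, n = 4). The 10 A-kinase anchor genes tested, whose products tether PKA within the cell, were split 5 and 5. Akap9 held 17.4 to 18.8 TPM in PGR-A KO and 20.3 to 23.6 TPM in WT, without overlap (log2 change -0.25, limma adjusted p = 0.721). Ezr, the most abundant anchor gene, held 104 to 203 TPM in PGR-A KO and 119 to 196 TPM in WT.

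Of 7 other cAMP effector genes tested, 4 had higher means and 3 lower. Rapgef4, the gene of the cAMP-activated exchange factor EPAC2, held 8.16, 18.9, 14.4 and 8.62 TPM in PGR-A KO and 10.4, 56.0, 38.8 and 31.5 TPM in WT, replicates 1 to 4. WT replicates 2, 3 and 4 were its highest libraries, as they were for Prkar2b, and WT replicate 1 fell among the PGR-A KO libraries. Its log2 change was -1.24 (SE 0.46, exact permutation p = 0.0857, limma adjusted p = 0.783). Bves, which encodes a cAMP-binding membrane protein and was the most abundant of this list, held 18.4 to 39.3 TPM in PGR-A KO and 17.8 to 33.3 TPM in WT.

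CREB relatives and coactivators were split, with 6 higher and 7 lower of 13 tested. Creb3l2 had the lowest p at 60.6 ± 5.22 TPM in PGR-A KO and 70.9 ± 7.87 TPM in WT (SD, n = 4, limma adjusted p = 0.783), and Creb3 the highest level at 112 ± 24.4 and 96.3 ± 18.4 TPM. Of 8 other RGS genes, 2 had higher means and 6 lower. Rgs12, which had both the lowest p and the highest level, held 32.2 to 39.4 TPM in PGR-A KO and 40.1 to 64.5 TPM in WT, without overlap (log2 change -0.38, limma adjusted p = 0.782). Of 11 tested genes known as CREB targets, 4 had higher means and 7 lower. The immediate early gene Fos held 27.8, 29.8, 25.4 and 27.2 TPM in PGR-A KO and 112, 101, 32.1 and 31.0 TPM in WT, replicates 1 to 4. WT replicates 1 and 2 stood far above the other 6, and the groups did not overlap (log2 change -1.05, exact permutation p = 0.0286, the smallest possible, limma adjusted p = 0.783). Star, the cholesterol transport gene and the most abundant target, held 484 to 1039 TPM in PGR-A KO and 525 to 1107 TPM in WT.

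Without WT replicate 1 and PGR-A KO replicate 3, 6 of the 15 pathway genes named by lowest p or highest level in their list had a limma adjusted p under 0.05, in a fit where 8.01% of all tested genes did. Bves (log2 change 0.99), Ezr (0.59) and Creb3 (0.51) were then higher in PGR-A KO. Rapgef4 (-1.80), Pde7b (-1.06) and Adcy9 (-0.57) were lower. Fos stood at -0.70 with an adjusted p of 0.333 and Rgs12 at -0.18 with 0.239. As for the 9 genes, the libraries were left out for their values, so these calls give no support for an effect of genotype. The genes named by lowest p were also picked from a fit that held these same libraries. The 6 of 15 can therefore not be compared with the 8.01% of all tested genes.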

How the data were processed

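Paired-end mRNA libraries of 8 pools of granulosa cells were sequenced, per the labels. The authors deposited 1 table of TPM per gene symbol; the submitters' processing notes name Salmon, limma, edgeR, FastQC and mm10 without versions or roles, and neither the annotation nor the summing to genes is stated there. Library sums were 994519 to 997022 TPM. Sequencing depth is unknown, since TPM does not keep it, and counting error cannot be stated.

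The fit took log2(TPM + 1) into limma 3.58.1 (trend, R 4.3.3) for the 14472 genes that reached 1 TPM in 4 or more of the 8 libraries, 4 PGR-A KO against 4 WT, with no covariate, Benjamini-Hochberg adjustment and a threshold of 0.05. Single values had an exact 2-sided permutation test over 70 assignments. The fit was tested on simulated data. TMM factors were an unweighted trimmed mean of log ratios of TPM. Positions are from GENCODE M21 and promoters from RefSeq. Named were the 9 genes, the gene of lowest p and the most abundant gene of each list, and the 3 genes most like each member. The members and lists were chosen with earlier results of these data known. Alternatives were other pseudocounts, filters, scalings and empirical Bayes settings, a replicate block and each library left out; the fit of 6 libraries was added after the data were seen.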

Additional observations from a re-analysis of the deposited data

Results flagged for a closer look

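In 8 of 58 groups of 4 libraries examined, 1 library lay far from the other 3. Chance would give about 2.9 if the groups were independent. They were not, since all came from the same 8 libraries and the ratios reuse the values of single genes. The 8 and the 2.9 therefore cannot be compared. Pde4d was low in PGR-A KO replicate 3 (6.21 TPM) and high in WT replicate 1 (14.8 TPM). The ratio of Pde10a to Pde4d was low in WT replicate 1 (0.286). Prkar2b stood apart in PGR-A KO replicate 2 (455 TPM), where the other 3 PGR-A KO libraries lay between 383 and 384 TPM. Creb1 was low in WT replicate 4 (18.0 TPM). Of the other pathway genes, Bves (33.3 TPM) and Creb3 (124 TPM) were high in WT replicate 1, and Rgs12 (32.2 TPM) was low in PGR-A KO replicate 3.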

How the results depend on the processing

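The count of 0 members past the adjusted threshold held in each other fit of 7 or 8 libraries, and by the smallest exact permutation p; it was 1 (Pde4d) without the pair of WT replicate 1 and PGR-A KO replicate 3, a fit added after the data were seen. At an unadjusted p under 0.05 the count of 0 members became 1 with quantile normalization (Rgs2) and 1 with the replicate block (Rgs2). It was 0 to 1 with a library left out and 6 without that pair. The 1 was Rgs2 without WT replicate 3 or 4, Pde10a without PGR-A KO replicate 3 and Prkar2b without WT replicate 1. Pathway genes at that level, 6 in all, became 10 with quantile normalization, 12 with the replicate block, 3 to 14 with a library left out (3 without PGR-A KO replicate 1, 14 without PGR-A KO replicate 3, 10 without WT replicate 1) and 25 without the pair. In the same fits the share of all tested genes at that level, 6.31% in all, was 6.29%, 9.45%, 4.19%, 10.7%, 12.8% and 25.1%. The 2 genes past the adjusted threshold among all tested became 1 with a pseudocount of 5, 0 to 6 with a library left out and 1131 without the pair. Pde4b turned from -0.070 to 0.088 without PGR-A KO replicate 3, 0.085 without WT replicate 1 and 0.24 without both, and was between -0.21 and 0.088 with a library left out. Creb1 turned from 0.0077 to -0.041 without WT replicate 4 and to -0.012 and -0.032 without the first and the second PGR-A KO library; it was at most 0.058 with any library left out and 0.074 without the pair. The other 7 genes kept their direction in each alternative that tested them; a minimum of 5 TPM removed Pde10a. With a library left out their sizes moved: Pde4d was 0.12 to 0.47 (without WT replicate 2 and PGR-A KO replicate 3), Pde10a 0.13 to 0.38 (PGR-A KO replicates 2 and 3), Prkar1a 0.013 to 0.15 and Prkaca 0.016 to 0.15 (PGR-A KO replicates 1 and 3), Crem 0.085 to 0.35 (WT replicate 4 and PGR-A KO replicate 3), Prkar2b -0.63 to -0.11 (WT replicates 1 and 2) and Rgs2 -0.33 to -0.16 (WT replicates 4 and 1). The cause was not tested. Deviations of same-numbered libraries correlated at 0.361, -0.109, 0.393 and -0.29 for replicates 1 to 4. Not every library correlated best with its own number. Such correlations cannot decide whether the numbers pair the samples, since they do not record how the libraries were made. Depth is unknown, so the lowest genes, Pde10a and Pde4b, carry an unknown counting error.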
